A study of Mus musculus with 26 samples.

Results

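The D2 CC-only peaks are the regions of open chromatin that were listed for D2 medium spiny neurons in cocaine relapse (D2 CC) and that shared not even 1 bp with a peak of any of the other 7 deposited lists. They number 5474 of the 68424 D2 CC peaks on chromosomes 1 to 19 and X, and the 8 lists hold 399299 peaks in all. The members were thus chosen by where peaks were called in these same lists, so their number, and any property that comes with a weak call, describes the choice and is not a finding. Medium spiny neurons (MSNs) of mouse brain, with the nucleus accumbens named in the study's title, had been profiled as D1 and D2 nuclei in 4 states. CC stands for cocaine relapse, CS for a prolonged withdrawal after chronic cocaine, SC for acute cocaine and SS for baseline. D2 CC is represented by 1 library, D2 CS by 8, D2 SC by 1, D2 SS by 2, D1 CC, D1 CS and D1 SC by 4 each and D1 SS by 2, and each group has 1 peak list. Strain, sex, age, the dose and timing of cocaine and the way D1 and D2 nuclei were sorted are not given in the sources used here. With 1 list per group there is no replicate error, and the single D2 CC library cannot be told apart from the relapse state. All intervals below are 95% intervals (exact Clopper-Pearson for shares, order statistics for medians) and cover counting error only.

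ATAC-seq uses the Tn5 transposase to insert adapters into accessible DNA, so that read pile-ups mark promoters, enhancers and other nucleosome-poor sites. D2 MSNs carry the dopamine receptor Drd2 and the adenosine receptor Adora2a, form the indirect pathway of the striatum, and are generally held to restrain drug seeking, whereas D1 MSNs of the direct pathway promote it. Relapse-like re-exposure to cocaine after withdrawal is widely used to ask which chromatin sites open again or open for the first time.

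Few members lay on a promoter. Of the promoter windows available here, the 4 that a D2 CC-only peak covered best are printed to show start sites at which such a peak was called. Each is the RefSeq window of 300 bases (250 before and 50 after the start of the gene, build GRCm38.p6, the build of mm10), read 5′ to 3′ on the gene's strand. Capitals mark the bases inside the D2 CC-only peak, and the 4 were chosen, with their values known, because at least 150 of the 300 bases lay inside one. Prl3c1 encodes a hormone of the prolactin family, Slc7a11 the light chain of the cystine-glutamate exchanger, and Gnmt the enzyme glycine N-methyltransferase, which consumes S-adenosylmethionine.
Prl3c1, chr13:27196410-27196709, plus strand: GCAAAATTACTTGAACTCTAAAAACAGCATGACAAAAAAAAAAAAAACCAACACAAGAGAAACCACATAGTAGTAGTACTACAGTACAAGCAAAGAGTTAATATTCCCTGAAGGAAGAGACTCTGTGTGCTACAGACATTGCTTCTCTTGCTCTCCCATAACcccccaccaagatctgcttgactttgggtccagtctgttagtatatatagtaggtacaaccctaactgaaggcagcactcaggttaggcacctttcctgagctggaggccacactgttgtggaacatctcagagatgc
Slc7a11, chr3:50443564-50443863, minus strand: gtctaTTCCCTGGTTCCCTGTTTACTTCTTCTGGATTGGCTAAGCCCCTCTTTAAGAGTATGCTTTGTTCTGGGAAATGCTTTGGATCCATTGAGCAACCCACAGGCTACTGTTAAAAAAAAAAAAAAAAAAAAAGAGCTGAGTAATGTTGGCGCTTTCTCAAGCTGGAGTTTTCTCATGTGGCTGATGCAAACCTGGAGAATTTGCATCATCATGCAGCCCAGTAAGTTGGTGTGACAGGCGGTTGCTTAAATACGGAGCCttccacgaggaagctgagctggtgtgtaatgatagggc
Gnmt, chr17:46729116-46729415, minus strand: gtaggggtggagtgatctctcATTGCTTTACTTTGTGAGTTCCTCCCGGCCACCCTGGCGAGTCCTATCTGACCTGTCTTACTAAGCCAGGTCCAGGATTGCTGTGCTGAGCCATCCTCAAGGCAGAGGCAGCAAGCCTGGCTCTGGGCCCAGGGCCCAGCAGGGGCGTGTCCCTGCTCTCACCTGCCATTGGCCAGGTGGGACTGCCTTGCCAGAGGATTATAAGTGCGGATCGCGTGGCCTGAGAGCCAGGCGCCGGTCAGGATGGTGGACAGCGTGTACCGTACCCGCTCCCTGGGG
4931414P19Rik, chr14:54605859-54606158, minus strand: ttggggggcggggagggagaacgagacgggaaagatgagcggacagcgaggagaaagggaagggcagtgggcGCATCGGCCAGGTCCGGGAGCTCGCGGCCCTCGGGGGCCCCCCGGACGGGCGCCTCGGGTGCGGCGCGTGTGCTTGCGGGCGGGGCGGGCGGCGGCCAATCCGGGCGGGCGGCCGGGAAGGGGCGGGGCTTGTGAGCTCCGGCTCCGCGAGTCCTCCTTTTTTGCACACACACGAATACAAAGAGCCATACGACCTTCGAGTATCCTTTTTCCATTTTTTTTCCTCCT

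The Prl3c1 peak (chr13:27196092-27196571) had a fold enrichment of 4.38 over the peak caller's background, covered 162 of the 300 bases and lay 280924 bp from the nearest peak of any other list. The Slc7a11 peak (chr3:50443602-50443858) had a fold of 3.06, covered 257 bases and lay 12582 bp from the nearest peak of another list. The Gnmt peak (chr17:46729065-46729394) had a fold of 2.51 and covered 279 bases, and the peak at 4931414P19Rik (chr14:54605759-54606086) had a fold of 2.41 and covered 228 bases. These last 2 peaks lay 338 bp and 1952 bp from a peak of another list, so they flank regions that other groups also held. The Prl3c1 window held 0 CpG dinucleotides and the Slc7a11 window 4, against 11 in the Gnmt window and 34 in the 4931414P19Rik window. Slc7a11 also had a stronger member inside the gene as annotated by the authors (chr3:50185997-50186563, fold 4.96).

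Both strands of these windows were searched for short motifs. The AP-1 site of Fos and Jun proteins was read as TGANTCA. The full cAMP response element (CRE) was read as TGACGTCA and its half-site, which the full element contains, as TGACG. The TATA box was read as TATAAA, and the GC box, a site of Sp1-family factors, as GGGCGG. The Prl3c1, Slc7a11 and Gnmt windows held 0 matches each, and the 4931414P19Rik window held 7, all of them the GC box. Among all 23 windows of protein-coding genes that a D2 CC-only peak touched by at least 1 bp, the AP-1 letters were in 2, the full CRE in 0, its half-site in 4, the TATA box in 4 and the GC box in 10 (43.5%, interval 23.2% to 65.5%). Of all 21045 such windows, 7.04% held the AP-1 letters, 2.26% the full CRE, 23.8% its half-site, 12.7% the TATA box and 46.7% the GC box. With 23 windows these shares cannot be separated from those of all promoters. No match says only that these letters are not in the window.

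The promoters touched by D2 CC-only peaks held less CpG than those of shared peaks, and about as much as promoters at large. The ratio of observed to expected CpG had a median of 0.52 (interval 0.27 to 0.60) in the 23 windows touched by a D2 CC-only peak, against 0.80 (0.80 to 0.81) in the 10782 windows touched by another D2 CC peak. A ratio over 0.6, a common mark of a CpG island, was found in 7 of the 23 (30.4%, 13.2% to 52.9%) against 80.1% of the 10782. Shared D2 CC peaks in the lowest 20% by fold, which are nearer in strength to the members, touched 656 windows with a median ratio of 0.70 (0.66 to 0.71), of which 62.0% were over 0.6. The 8942 windows with no peak in any of the 8 lists had a median of 0.21. Over all 21045 windows the median was 0.57, with 48.1% over 0.6, and both values lie within the intervals of the 23. The D2 CC-only windows therefore lay between the promoters of weak shared peaks and those with no peak. The promoter table used here holds no window of chromosome 18, where 237 of the members lie. Its windows cover 17274 protein-coding genes, against 21631 in all, so further promoters touched by a member may be missed.

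D2 CC was the list with the second highest share of peaks found nowhere else. The share was 8.0% (7.80% to 8.21%) in D2 CC, against 16.6% in D1 CC, 4.21% in D2 SS, 3.81% in D1 CS, 3.25% in D2 SC, 1.16% in D2 CS, 0.505% in D1 SC and 0.326% in D1 SS. D1 CC and D2 CC are also the longest lists, with 77070 and 68424 peaks, and the 3 shortest lists (27898 to 28568 peaks) have the 3 lowest shares. Each list was then reduced to its strongest 27898 peaks by q-value, with ties broken by fold. At that length D2 CC kept 826 list-only peaks (2.96%), which placed it sixth of 8, between D1 CC (3.70%) and D2 SC (2.86%), while D2 CS was highest (6.25%). The order of the lists thus changed with list length, and it is no ranking of the states.

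**Figure D1:**
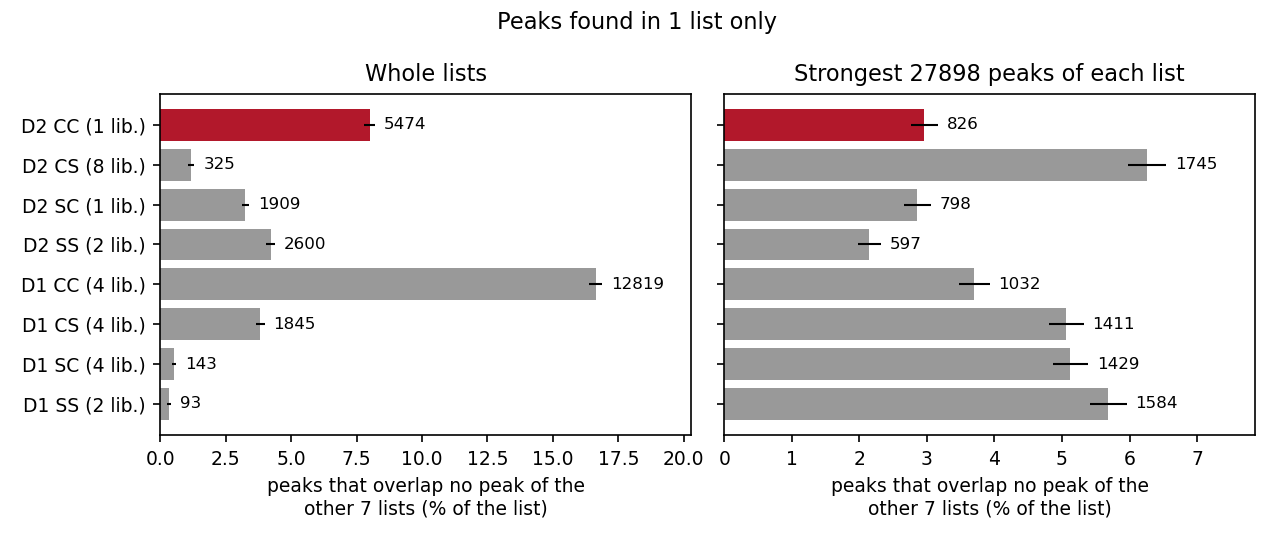
Share of each peak list that overlaps no peak of the other 7 lists (horizontal axis, %), for whole lists (left) and for the strongest 27898 peaks of each list by q-value (right); bars are shares, lines exact 95% intervals, numbers the peaks counted, and lib. the libraries of the group. D2 CC stands at 8.0% of the whole list and at 2.96% at equal length, where 5 lists stand above it.

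The lists fall into 2 kinds that do not follow the states. Sequences outside chromosomes 1 to 19, X and Y (patches, unplaced scaffolds and the mitochondrial genome) held 0.0628% of the deposited peaks in D2 CC, 0.0782% in D2 SC, 0.0840% in D2 SS and 0.136% in D1 SS, against 0.272% to 0.428% in D1 CC, D1 CS, D1 SC and D2 CS. Chromosome 7 held 3.17% of the D2 CC peaks and 3.14% to 3.45% in the 3 lists like it, against 4.55% to 4.91% in the other 4. The split coincides with the number of libraries: D2 CC and the lists like it come from groups with 1 or 2 libraries, the others from groups with 4 or 8. In the order of the samples, the libraries of the first kind also all precede those of the second. What sets the 2 kinds apart is not given in the sources used here and was not tested. The only other relapse list, D1 CC, is of the second kind. Searched against the 3 lists of its own kind alone, D2 CC held 9407 peaks found nowhere else (13.7%), and against the 4 lists of the second kind alone 13497 (19.7%). Both searches were devised with the values in view.

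The D2 identity of the list was checked against marker genes, counting peaks in the gene or within 5 kb of it. All 10 D2 MSN markers had a D2 CC peak, 48 in all, among them 12 at Drd2, 3 at Adora2a and 4 at Penk, the gene of the D2 neuropeptide enkephalin. All 10 D1 MSN markers had one as well, 55 in all, among them 2 at Drd1 and 2 at Tac1, so presence of a peak does not separate the 2 cell types. Of 61 markers of astrocytes, oligodendrocyte lineage, microglia, vessels, striatal interneurons and cortical excitatory neurons, 34 had a D2 CC peak (85 peaks in all) and 27 had none, with Gfap, Mog, Cx3cr1, Cldn5, Sst and Pvalb among those without. The same count over these 61 genes was 50 in D1 CC, 30 in D2 SC and 37 in D2 SS. Of the 85 peaks, 8 were D2 CC-only (9.41%), with peaks at Acta2, Aqp4, Bcl11a, Mbp and Slc1a2 among them, and the part of other cells in the members was not tested.

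Members were weak and narrow. Fold, q-value and width come from the same peak calls as the choice of members, so the values below are a description and support nothing further. Their median fold was 3.26 (3.21 to 3.29) against 4.61 for the other 62950 D2 CC peaks, and their median place in the list by fold was percentile 16.3 against 53.8. The lowest quartile of the list held 3798 of them (69.4%), 174 lay above the list's median, and 1 reached the top quartile. By decile of fold, the share that was D2 CC-only fell steadily, being 26.0% in the lowest decile, 21.1% in the next, 5.64% in the fifth, 0.117% in the eighth, 0 of 6841 peaks in the ninth and 0 of 6843 in the top decile (exact upper limits 0.0539%). The median width was 245 bp (243 to 249) against 580 bp, 720 members were at the smallest width in any list (200 bp), 3607 were under 300 bp wide, and 0 of 5474 exceeded 1000 bp (exact upper limit 0.0674%). The authors' q-value had a median of 4.63e-06 among members and reached 0.0259 at most, against a median of 5.02e-14 for the other D2 CC peaks.

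The spacing of the fold values allows the fold to be written as a pileup for part of the members. Frequent folds in the D2 CC list were close to whole multiples of 0.146 (all 25 of the most frequent values), a step picked to fit as many of them as possible. If fold is pileup plus 1 over background plus 1, as MACS2 computes it, that step means a background of 5.85 fragments. On this grid lay 2447 members (44.7%), with a median pileup of 23 fragments at the summit (quartiles 21 and 26, range 15 to 40), against a median of 29 (quartiles 25 and 36) for the 16494 other D2 CC peaks on it. A typical D2 CC-only peak on the grid thus rested on fewer overlapping fragments than a typical shared one. The pileup was worked out from the fold, so this restates the lower fold of the members and adds no support. Peaks off the grid are not covered by these numbers.

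**Figure D2:**
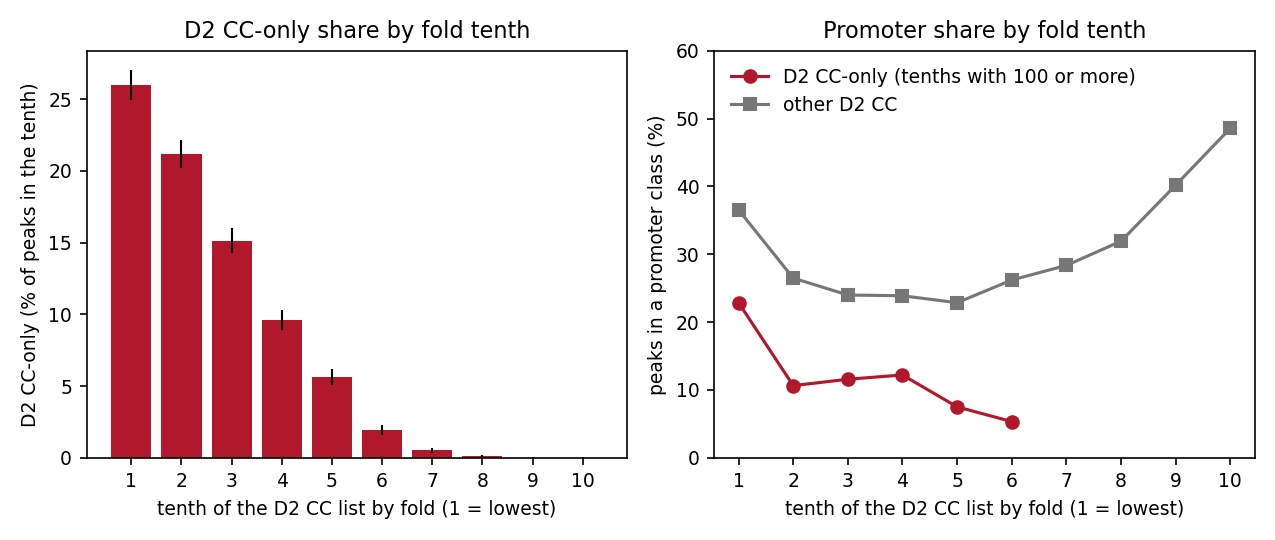
Left, share of D2 CC peaks that are D2 CC-only (vertical axis, %) in each decile of the D2 CC list by fold, with exact 95% intervals; right, share of peaks in a promoter class (%) by the same deciles for D2 CC-only peaks (circles, deciles with at least 100 members) and other D2 CC peaks (squares). The D2 CC-only share drops with fold to 0 in the top 2 deciles, and the promoter share of D2 CC-only peaks lies under that of other peaks in each decile drawn for both.

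Position relative to genes was not itself a criterion for members. The rule did, however, remove every D2 CC peak at a site called in another list, and those peaks were often at promoters. The class shares below are thus tied to the choice and describe it. D2 CC-only peaks lay at promoters less often than shared peaks. In the authors' annotation 797 of 5474 (14.6%, 13.6% to 15.5%) were in a promoter class, that is within 3 kb of a start site, against 31.1% (30.7% to 31.5%) of the other D2 CC peaks. Gene bodies held 49.1% (47.8% to 50.4%) against 36.8%, and intergenic sequence 36.4% (35.1% to 37.6%) against 32.1%. The gene-body excess was largest among the weakest peaks: the share was 54.4% against 45.6% in the lowest fold decile and 51.8% against 45.6% in the second, but 44.3% against 44.5% in the fourth and 36.3% against 41.5% in the fifth. The intergenic share of D2 CC-only peaks was the higher one in each decile that held members. It was 22.7% against 17.8% in the lowest decile, 42.0% against 30.3% in the third and 56.2% against 35.6% in the fifth. At equal list length the gene-body share of D2 CC-only peaks was 38.9% (35.5% to 42.3%).

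The difference lay in the promoter core. Within 250 bp of a start site lay 2.41% of the D2 CC-only peaks against 19.1% of the others, whereas 250 to 1000 bp away lay 4.26% against 5.66%, and 1 to 3 kb away lay 7.89% against 6.33%. Counted the other way, D2 CC-only peaks made up 1.09% (0.910% to 1.29%) of the 12153 core promoter peaks of D2 CC, 6.14% of those 250 to 1000 bp away, 9.78% of those 1 to 3 kb away, 10.4% (10.0% to 10.8%) of gene-body peaks and 8.96% of intergenic peaks. A D2 CC peak on a start site was therefore nearly always present in another list too.

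The difference was also present among peaks of like strength and width, though it was not smaller at every level of fold. Among D2 CC peaks in the lowest 20% by fold and under 300 bp wide, 382 of 2169 D2 CC-only peaks (17.6%, 16.03% to 19.3%) were in a promoter class against 1260 of 4324 others (29.1%, 27.8% to 30.5%). In the lowest fold decile the promoter share was 22.9% against 36.5%, in the second 10.6% against 26.5%, and in the third 11.6% against 24.0%. In the sixth it was 5.34% (7 of 131 members) against 26.2%, a wider gap than over the whole list. In each of the 8 deciles that held members, the D2 CC-only share at promoters was the lower one.

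The low promoter share was not particular to relapse. Of the list-only peaks, 14.6% were in a promoter class in D2 CC, against 21.3% in D1 CC, 11.7% in D2 SC and 15.5% in D2 SS. The interval of D2 CC-only peaks (13.6% to 15.5%) excluded the shares of D1 CC and D2 SC.

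**Figure D3:**
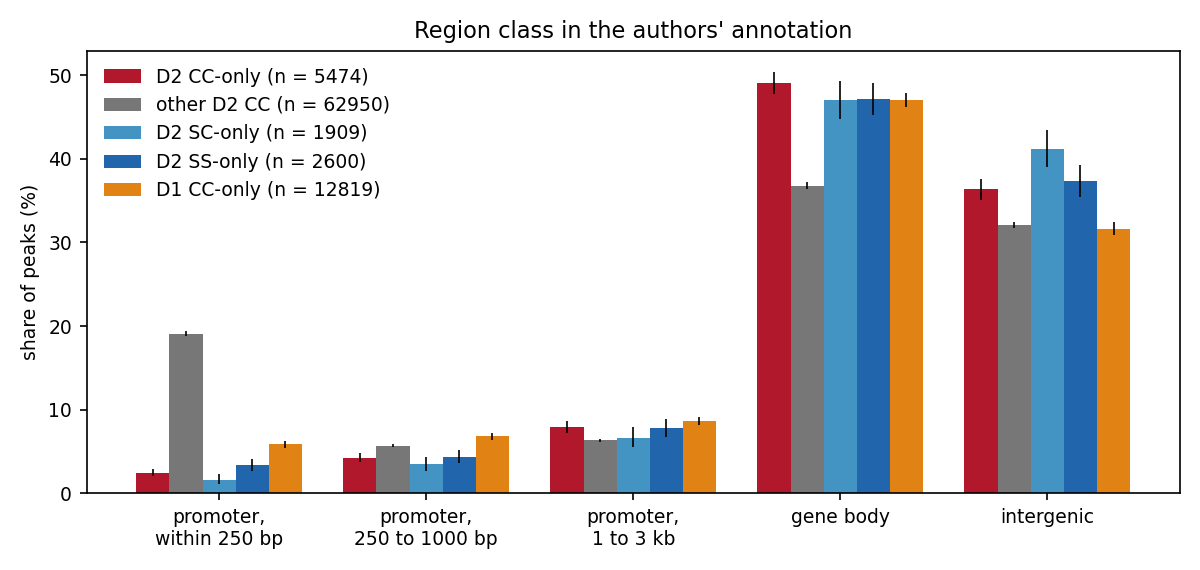
Share of peaks (vertical axis, %) in each region class of the authors' annotation for D2 CC-only peaks, the other D2 CC peaks and the list-only peaks of D2 SC, D2 SS and D1 CC, with exact 95% intervals. The gap between D2 CC-only (2.41%) and other D2 CC peaks (19.1%) is widest within 250 bp of a start site.

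Distances told the same. Where the authors assigned a gene, the median distance to its start was 24314 bp (21949 to 26542, n = 3484) for D2 CC-only peaks and 6188 bp (5757 to 6594, n = 42737) for the other D2 CC peaks. The difference came from promoters, because gene-body peaks alone had medians of 42403 bp (40300 to 45060) for D2 CC-only and 42235 bp (41223 to 43103) for the others. Measured to the nearest RefSeq start site, with intergenic peaks included and chromosome 18 left out, the medians were 45137 bp for D2 CC-only and 28059 bp for the others, and 30.5% against 22.9% lay over 100 kb from one. The RefSeq starts used here appear to lack some genes, which would lengthen these distances. List-only peaks of the other groups had medians of 53720 bp in D2 SC, 43904 bp in D2 SS and 26683 bp in D1 CC, so D2 CC-only peaks lay at a distance like those of D2 SC and D2 SS and farther out than those of D1 CC.

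Many members flanked a region held by another list, and how many depends on the definition of a member. A peak of another list lay within 5 kb of 2553 D2 CC-only peaks (46.6%, 45.3% to 48.0%), within 1 kb of 1253 (22.9%) and within 200 bp of 741 (13.5%). The median gap was 5645 bp, 267 members (4.88%) were over 50 kb from any peak of another list, and the greatest gap was 441200 bp. D1 CC had a peak within 5 kb of 2020 members (36.9%), D2 SS of 1792 (32.7%), D2 SC of 1732 (31.6%), D1 CS of 1131 (20.7%), D1 SS of 705 (12.9%), D1 SC of 680 (12.4%) and D2 CS of 631 (11.5%). That is also the order of the lists by length. All 7 other lists had a peak within 5 kb of 403 members (7.36%), and 701 were near 1 list alone. The share within 5 kb of another list was 72.5% when only a reciprocal overlap of 50% counted as shared, 30.8% when a peak within 1 kb did, and 11.5% at equal list length. The first value and the second follow from the definitions. Under reciprocal overlap, peaks that partly overlap another list become members and count as within 5 kb. The limit of 1 kb removes the nearest members.

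The neighbours were often called in D2 CC as well. A shared D2 CC peak lay within 5 kb of 1805 members (33.0%), and of the 2553 members near another list 1800 (70.5%) had one. Members within 5 kb of another list were at promoters more often (19.5%, 17.9% to 21.1%) than those farther off (10.3%, 9.19% to 11.4%), and were a little weaker, with a median fold of 3.09 against 3.36. Intergenic sequence held 31.0% of the near and 41.0% of the far ones. Another member lay within 5 kb of 319 members (5.83%), and the share to be had from random placement was not computed. Among list-only peaks of the other groups the share within 5 kb of another list was 45.1% in D2 SC, 49.96% in D2 SS and 38.4% in D1 CC, against 46.6% in D2 CC.

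**Figure D4:**
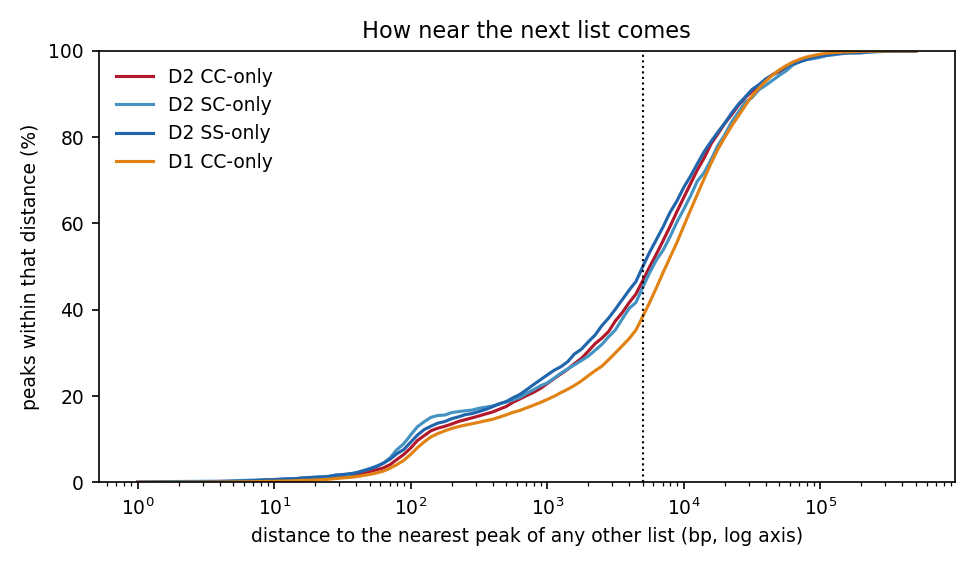
Share of list-only peaks (vertical axis, %) with a peak of any other list within the distance on the horizontal axis (bp, log axis), for D2 CC, D2 SC, D2 SS and D1 CC; the dotted line marks 5 kb. At 5 kb the D2 CC-only curve stands at 46.6%, above that of D1 CC-only peaks (38.4%).

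The edge of the definition was fine-grained. Of the members, 3 lay 1 bp from a peak of another list (at Aida, at an intergenic site of chromosome 2 and at 1700029H14Rik) and 5 lay 2 bp from one, those at Ptpn4 and Serinc5 among them, and 138 members had a gap of at most 50 bp. Just outside, 1 D2 CC peak, in Itgbl1, was overlapped by 2 bp and 6 by 4 bp, those at 9830004L10Rik and Ncaph2 among them. In all 144 were overlapped by 1 to 50 bp, about as many as the members within 50 bp of the limit. The 5 members named here had folds of 2.26 to 3.65, and the 3 peaks named just outside 3.41 to 3.65; ties at 2 bp and 4 bp leave further peaks unnamed.

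Of the 10 members with the highest folds, 7 were intergenic and 3 lay in gene bodies in the authors' annotation, and 0 lay at a promoter. The highest fold, 5.98, belonged to an intergenic peak of 532 bp at chr2:61907610-61908141, 40041 bp from the nearest peak of another list and 2500 bp from a RefSeq start site. Among members with an assigned gene the highest were in Pkhd1 (fold 5.69, chr1:20311747-20312000), which encodes the ciliary protein fibrocystin, Sntb1 (5.64, chr15:55856057-55856574), a syntrophin of the dystrophin complex, and Cylc2 (5.54, chr4:51219600-51220154), a protein of the sperm head. Next came Prdm1 (5.25), a transcriptional repressor best known from lymphocytes, and Slc4a10, a bicarbonate transporter of neurons, Cntnap2, an adhesion protein of the neurexin family, and Ccser1, at 5.11 each. Pag1, an adaptor of Src-family kinases, had 5.09. At 4.96 stood Daw1, Gm19136, Ptprm, Slc8a1, Slc7a11 and Ptchd1, followed by the potassium channel Kcnd3 at 4.92. Of these 15 genes, 14 held their peak in the gene body and Gm19136 held it within 3 kb of the start.

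Promoter-class members were weaker. After Gm19136 came Asic5 (4.82), of the acid-sensing ion channel family, Trav3-3 (4.67), a T-cell receptor segment, Abi1 (4.62), a subunit of the WAVE actin-regulating complex, Mff, a factor of mitochondrial fission with 2 such peaks (4.57 and 4.43), Gm37060 (4.52), the condensin subunit Ncapd2 (4.52), Prl3c1 (4.38) and Gm11446 (4.38). Of these peaks only those of Asic5 (853 bp) and Prl3c1 (329 bp) had a RefSeq start within 3 kb. For Abi1 and Ncapd2 the nearest RefSeq start lay 52030 bp and 12388 bp away, and for the 2 Mff peaks 4973 bp and 4644 bp. For Gm19136, Trav3-3, Gm37060 and Gm11446 it lay 65827, 295620, 7078 and 86745 bp away. All but the Asic5 and Prl3c1 peaks are thus promoter peaks by the authors' annotation alone. The RefSeq starts used here appear to lack some genes, so a large distance can also mean a missing start. At Nat2, for example, a member lay 11 bp from the authors' start and 588813 bp from the nearest RefSeq start used. These distances therefore do not settle whether the other peaks lie at RefSeq promoters.

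Members farthest from every other list were mostly on the X chromosome, which held 6 of the 10 farthest. The greatest gap belonged to an intergenic peak at chrX:132946061-132946318 (fold 3.21, 441200 bp), followed by a peak within Dmd, the dystrophin gene (chrX:83726585-83726784, fold 3.79, 349536 bp). Prl3c1, described above, and Vmn2r120, a vomeronasal receptor gene on chromosome 17 (206652 bp), were among the other 4. The folds of the 10 ran up to 4.38, so none of them was among the 15 strongest members named above.

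Genes with several members were long. A D2 CC-only peak lay in the body of 2030 of 21631 protein-coding genes (9.38%), and in the body or within 5 kb of 2426 (11.2%), against 15146 (70.0%) with any D2 CC peak in that range. At least 2 members were in 603 genes, at least 3 in 233 and at least 5 in 52. Those 52 genes had a median length of 894.6 kb, against 17.3 kb over all genes. D2 CC-only peaks made up 3.10% of the D2 CC peaks in genes under 20 kb, 4.75% from 20 to 50 kb, 7.13% from 50 to 100 kb, 8.41% from 100 to 200 kb, 9.16% from 200 to 500 kb and 10.8% in longer genes. Per length the differences were smaller, at 2.41 members per Mb of gene body in genes under 20 kb and 3.13 per Mb in those over 500 kb, because short genes had more D2 CC peaks per Mb (77.7 against 29.1).

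The most members were in Lrp1b, a large receptor of the LDL-receptor family, with 11 of its 47 D2 CC peaks (23.4%), and in Marchf1, a membrane-bound E3 ubiquitin ligase, with 11 of 31 (35.5%). Over all gene bodies the share was 7.19%. The 11 Lrp1b members had folds of 3.06 to 4.67 and were 2304 to 20681 bp from the nearest peak of another list, with 2 within 5 kb of one. They lay between chr2:41595097 and chr2:42630300, in a gene that runs over chr2:40595290-42653598. The 11 Marchf1 members had folds of 2.92 to 4.09 and gaps of 6388 to 35170 bp, and 0 lay within 5 kb.

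Robo2, a receptor for the axon guidance protein Slit, had 10 members of 45 peaks (folds 2.87 to 4.94), and its relative Robo1 had 8 of 51. Celf2, a splicing regulator, had 10 of 39 (folds 2.52 to 3.59), with 6 of them within 5 kb of another list. Magi2, a synaptic scaffold, had 9 of 65, and Tiam1, an exchange factor for Rac in dendritic spines, 9 of 36. Dab1, the adaptor of the reelin receptors, had 8 of 46, Nkain3, which interacts with the sodium pump, 8 of 41, and Ptprn2, a phosphatase-like protein of secretory vesicles, 8 of 54. Tiam1 had the densest members of these 10 genes, with 25.1 per Mb against 2.95 per Mb over all gene bodies, and 7 of its 9 lay within 5 kb of another list. The count in Ptprn2 would be 13 without the D1 CC list. Some of the peaks in Robo1, Robo2 and Tiam1 were called intergenic in the authors' annotation although they lie in the RefSeq gene.

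List-only counts of the same genes in other groups are set beside these as values. The sets hold 5474 peaks in D2 CC, 12819 in D1 CC, 1909 in D2 SC and 2600 in D2 SS, so the counts are not comparable in size. Lrp1b had 11 in D2 CC, against 4 in D1 CC, 3 in D2 SC and 1 in D2 SS. Marchf1 had 11 in D2 CC, against 2 in D1 CC, 2 in D2 SC and 0 in D2 SS. Robo2 had 10 in D2 CC, against 1 in D1 CC, 2 in D2 SC and 4 in D2 SS. In these genes D2 CC had the highest count of the sets, as it also had in Tiam1 (9 in D2 CC, 2 in D1 CC, 1 in D2 SC and 2 in D2 SS), Nkain3 (8 in D2 CC, 2 in D1 CC, 1 in D2 SC and 2 in D2 SS) and Robo1 (8 in D2 CC, 5 in D1 CC, 4 in D2 SC and 3 in D2 SS). In the other 4 genes D1 CC had as many or more, namely in Celf2 (10 in D2 CC, 14 in D1 CC, 0 in D2 SC and 0 in D2 SS), Magi2 (9 in D2 CC, 12 in D1 CC, 4 in D2 SC and 4 in D2 SS), Dab1 (8 in D2 CC, 8 in D1 CC, 0 in D2 SC and 4 in D2 SS) and Ptprn2 (8 in D2 CC, 17 in D1 CC, 1 in D2 SC and 2 in D2 SS). These 10 genes were picked for their D2 CC count, so a high D2 CC count among them follows from the choice.

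By gene family, the guidance and adhesion genes held the highest D2 CC-only shares among the lists with at least 100 D2 CC peaks. Peaks were counted in a gene or within 5 kb, a peak near 2 genes counting for each, and over all protein-coding genes 3588 of 50015 such peaks were D2 CC-only (7.17%). Axon guidance genes had 63 of 457 (13.8%, 10.8% to 17.3%), with at least 1 member at 21 of 27 genes. Beside the Slit receptors Robo2 and Robo1, the ephrin receptor Epha5 had 6 of 15 peaks, the netrin receptors Unc5d and Dcc had 6 of 25 and 5 of 31, and the ligand Slit3 had 4 of 44. The 6 Epha5 members (folds 2.92 to 3.94) lay between chr5:84081534 and chr5:84369685, all in the gene body, and 1 was within 5 kb of another list. Efna5, an ephrin, and Sema3a, a secreted semaphorin, had 3 each, and Epha6, Nrp1, Plxna4, Sema3c and Sema6d 2 each.

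Synaptic adhesion genes had 117 of 969 (12.1%, 10.1% to 14.3%), at 30 of 35 genes. The latrophilin Adgrl3, the IgLON protein Ntm and the receptor phosphatase Ptprd had 7 each, and the cadherin Cdh13, the neuroligin Nlgn1 and the neurexin Nrxn3 6 each. Adgrb3, Cadm2, Cntn4, Cntnap2, Lrrc4c, Pcdh9 and Tenm2 had 5 each, Adgrl2, Cntnap5a, Lrrtm3 and Tenm3 4 each, Cdh10, Cdh8, Cntn5 and Lsamp 3 each, and Lrfn5, Lrrtm4, Opcml, Tenm1 and Tenm4 2 each. Of the 7 Ntm members 3 were at starts of transcripts, 2 of them within 250 bp (chr9:29109533-29109794, fold 3.66, and chr9:29109879-29110090, fold 3.31). These genes are long, with median lengths of 902.6 kb for adhesion and 326.4 kb for guidance, and all genes over 500 kb had 10.8% and those of 200 to 500 kb 9.16%, so these are the nearer values to set beside them. The values by length count peaks in the gene body alone, whereas the list shares include 5 kb around the gene. The interval of the adhesion genes includes the 10.8% of genes over 500 kb, and they are not separated from other genes of that length. The interval of the guidance genes lies above 9.16% and its lower end near 10.8%. Of the guidance genes with the most members, Robo2, Robo1, Unc5d and Dcc are over 500 kb long and Epha5 (363.1 kb) is not. Neither length class alone thus matches that list.

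The same lists stood above their background in the other D2 sets too. For axon guidance the list-only share was 13.8% in D2 CC (background 7.17%), 5.47% in D2 SC (background 2.55%), 5.90% in D2 SS (background 3.604%) and 12.3% in D1 CC (background 15.5%). For synaptic adhesion it was 12.1% in D2 CC, 5.45% in D2 SC, 6.47% in D2 SS and 15.2% in D1 CC. Both shares thus lay above the background of all protein-coding genes in the 3 D2 sets, and they were not particular to relapse. In D1 CC the guidance share lay below that background and the adhesion share close to it. Shares of genes of like length were computed for D2 CC alone. With 1 list per group the differences between lists were not tested.

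Receptors and channels lay nearer to the background. GABA receptor genes had 13 of 114 (11.4%, 6.21% to 18.7%), with 3 members at Gabrb2 and 2 each at Gabra2, Gabrb1 and Gabrg3. Glutamate receptor genes had 34 of 341 (9.97%, 7.004% to 13.7%), with 5 each at the AMPA receptor subunit Gria1, the NMDA receptor subunit Grin2b and the metabotropic receptor Grm7, 3 each at Gria3, Grid1 and Grik2, and 2 at Grin2a. Voltage-gated channel genes had 46 of 480 (9.58%, 7.10% to 12.6%), led by the channel-interacting protein Kcnip4 with 6, the A-type potassium channel Kcnd2 with 5 and the calcium channel subunit Cacna2d3 with 4. Cacna1a had a member 225 bp from a start (chr8:84601588-84601803, fold 3.01). The intervals of these 3 lists included the 7.17% of all genes.

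Dopamine and cAMP signalling genes had 27 of 268 (10.1%, 6.74% to 14.3%), at 13 of 20 genes. The phosphodiesterase Pde7b, which breaks down cAMP and is expressed in striatum, had 5 of 20, Pde4d had 4 of 45, the kinase gene Prkg1 4 of 23 and Rgs7, a regulator of G-protein signalling, 3 of 22. Pde4d had 1 member within 250 bp of a start (chr13:109756998-109757230, fold 3.65). Prkcb had 2 members and the dopamine receptor Drd3 had 1. Among regulators linked to cocaine, 10 of 106 peaks were D2 CC-only (9.43%, 4.62% to 16.7%), with 3 each at Mef2c and Rarb and 1 each at Dnmt3a, Mef2a, Mef2d and Tet1. Both intervals include the 7.17% of all protein-coding genes. Mef2c and Mef2d, activity-dependent transcription factors that restrain spine growth, each had 1 of these at a start, at chr13:83572078-83572277 (fold 2.47, 171 bp from it) and chr3:88168257-88168555 (fold 2.57, 154 bp from it).

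**Figure D5:**
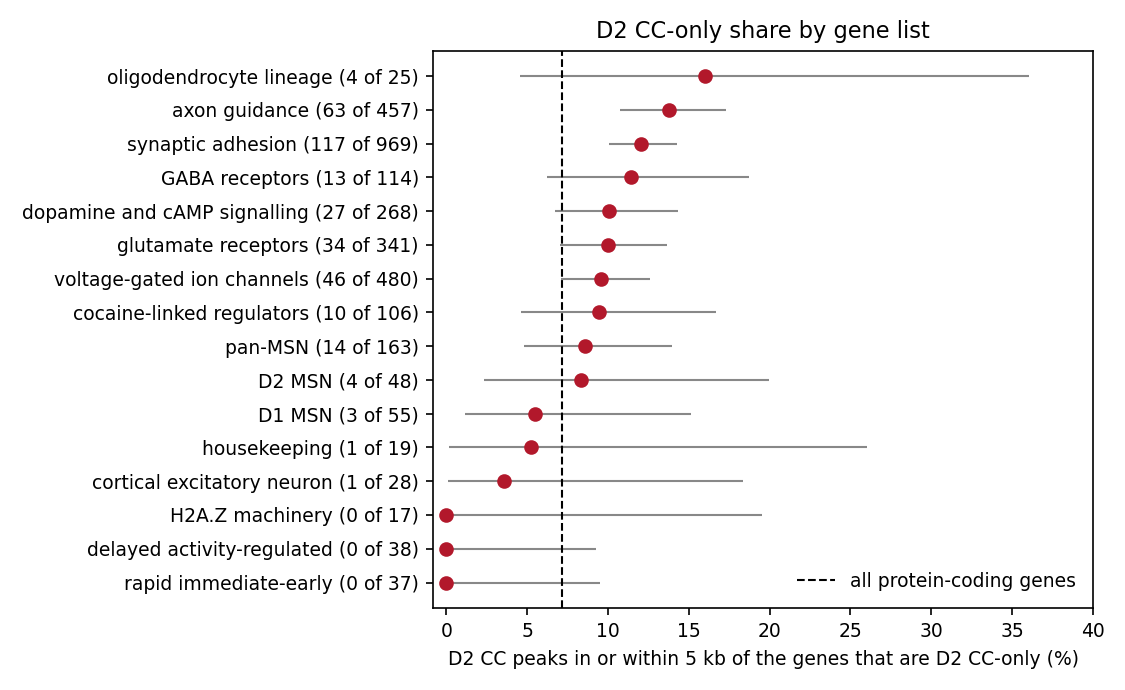
Share of D2 CC peaks in or within 5 kb of the genes of each list that are D2 CC-only (horizontal axis, %), with exact 95% intervals, for lists with at least 15 D2 CC peaks; numbers are D2 CC-only peaks of all D2 CC peaks and the dashed line is the share over all protein-coding genes (7.17%). Axon guidance (13.8%) and synaptic adhesion (12.1%) have intervals wholly above the line, and the immediate-early and delayed activity-regulated genes have 0 D2 CC-only peaks.

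Activity-regulated genes had no D2 CC-only peak. The rapid immediate-early genes, among them Fos, Fosb, Junb, Egr1, Arc and Npas4, had 37 D2 CC peaks at 15 of 16 genes, and 0 of these were D2 CC-only, with an exact upper limit of 9.49%. The delayed activity-regulated genes had 0 of 38, with an upper limit of 9.25%. Both limits lie above the 7.17% of all genes, so a lower share was not detectable at these numbers. The genes of the histone variant H2A.Z and its loading machinery had 0 of 17, with an upper limit of 19.5%, and 10 housekeeping genes had 1 of 19.

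Marker genes of the MSNs themselves held members at shares near the 7.17% of all genes. D2 MSN markers had 4 of 48 (8.33%, 2.32% to 20.0%), namely 2 at Drd2, 1 at Grik3 and 1 at Sp9, a transcription factor needed for D2 MSN development. The Drd2 members lay in the gene body at chr9:49378749-49379190 (fold 2.13) and chr9:49379752-49380028 (fold 2.03), 1325 bp and 487 bp from the nearest peak of another list, and both were in the lowest 1% of the D2 CC list by fold. D1 MSN markers had 3 of 55 (5.45%, 1.14% to 15.1%), with 2 at Eya1 and 1 at Isl1, and markers of both MSN types 14 of 163 (8.59%, 4.78% to 14.0%), with 3 each at Foxp1 and Rarb and 2 each at Adcy5, Pde10a and Rgs9. All 3 intervals include the share of all protein-coding genes.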

How the data were processed

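The data are ATAC-seq peaks of nuclei from D1 MSNs and D2 MSNs of mouse, 1 list for each of 8 groups with 26 libraries. The submitters' processing notes name cutadapt, HISAT, SAMtools and MACS2, with no versions or roles, and build mm10; whether libraries were pooled is not stated, and read depth is unknown. Per the file headers, the authors gave each peak a fold enrichment (a ratio, not scaled between lists), a q-value, a region class and a signed distance to a start site. The lists hold 0 columns per library, so no test between groups was possible.

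A peak was D2 CC-only when it shared 0 bp with every other list (an overlap of 1 bp counted as shared). Gaps, classes, widths and fold percentiles were computed with Python 3.11.15, numpy 2.4.6, pandas 2.3.3 and scipy 1.17.1, and the code for gaps, overlaps and gene counts returned the known answers on simulated peaks. Gene bodies (21631 protein-coding genes), promoter windows and sequences came from RefSeq tables of GRCm38.p6. All 298 entries of the 20 gene lists were found. Named are the 10 genes with the most members, the 15 highest folds, the 10 highest promoter folds, the 10 farthest and 5 nearest members, the 5 smallest overlaps just outside, and genes of the lists with at least 2 members or a promoter member; of these the text prints a part, and some genes are not reported here. The members and the lists were chosen with earlier results of these data known.

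Alternatives were a q-value of at most 1e-05, a reciprocal overlap of 50%, a limit of 1 kb, autosomes alone, lists of equal length, the other 3 D2 lists alone, each other list left out, and, added after the data were seen, lists with few or many peaks on other sequences.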

Additional observations from a re-analysis of the deposited data

How the results depend on the processing

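No paired analysis was possible because each group has 1 peak list, although the labels number the libraries. Of 80 values under alternatives other than leaving out a list, 63 moved outside the interval of the value reported, or by over 1.5 times for counts; the cause was not tested. Keeping autosomes alone moved none of the 10 results.

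The number of D2 CC-only peaks was 5474. It was 2921 (4.82% of the D2 CC peaks kept) at a q-value of at most 1e-05, 10638 (15.5%) with a reciprocal overlap of 50%, 4221 (6.17%) when a peak within 1 kb counted as shared, 826 (2.96%) at equal length, 9344 (13.7%) against the other 3 D2 lists, 9407 (13.7%) against the 3 lists with few peaks on other sequences and 13497 (19.7%) against the 4 with many. In the same order, leaving out the limit of 1 kb (1626 genes), genes with a member numbered 1162, 3329, 307, 3263, 3312 and 3167.

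The promoter share (14.6% as reported) was 13.0% at the stricter q-value, 16.9% at reciprocal overlap, 11.96% at 1 kb, 8.60% at equal length, 18.2% against the D2 lists, 18.9% against the lists with few and 12.2% against those with many peaks on other sequences. In all of these it stayed under 31.1%, the share of the other D2 CC peaks under the main definition. The share of the other peaks was not computed anew for each alternative. The gene-body share (49.1%) was 47.0% at the stricter q-value, 46.8% at reciprocal overlap, 38.9% at equal length, and 47.5% and 43.9% against the lists with few and with many. The intergenic share (36.4%) was 40.02% at the stricter q-value, 37.6% at 1 kb, 52.5% at equal length, 33.8% against the D2 lists, and 33.6% and 43.9% against the lists with few and with many.

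The median distance (24314 bp) was 20740 bp at reciprocal overlap, 28285 bp at 1 kb, 35025 bp at equal length, 18911 bp against the D2 lists, and 18009 bp and 28585 bp against the lists with few and with many. The median width (245 bp) was 241, 260, 255, 572, 254, 254 and 328 bp, and the median fold percentile (16.3) was 28.0, 18.97, 18.1, 31.8, 17.2, 17.2 and 25.6, at the stricter q-value, reciprocal overlap, 1 kb, equal length, the D2 lists, the lists with few and those with many. At equal length the percentile was ranked anew within the shortened list, and elsewhere within the whole list. The share within 5 kb of another list (46.6%) was 72.5% at reciprocal overlap, 30.8% at 1 kb, 11.5% at equal length, 38.9% against the D2 lists, and 38.5% and 33.4% against the lists with few and with many. The values at reciprocal overlap and at 1 kb follow from those definitions, as described above.

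With each other list left out in turn, the number ranged over 5493 to 8028 (highest without D1 CC), its share over 8.03% to 11.7%, genes over 2037 to 2778, the promoter share over 13.7% to 16.4%, gene bodies over 47.7% to 49.2%, intergenic over 35.1% to 38.5%, distance over 21215 to 25646 bp, width over 245 to 254 bp, fold percentile over 16.1 to 18.97 and nearness to another list over 41.0% to 46.6%.

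Counts in the 10 genes with the most members stayed within 1.5 times in 52 of 80 cases under the first kind of alternative and in 69 of 70 with a list left out, the exception being Ptprn2 (13 without D1 CC).

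Limits: D2 CC is 1 library, the lists differ in length and kind, and a peak just under the caller's threshold in another list counts as absent there. Depth behind a single peak is known only as the pileups given above.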

Other observations

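The members were spread unevenly over the chromosomes. Chromosome X held 202 D2 CC-only peaks, 10.7% (9.37% to 12.2%) of its 1882 D2 CC peaks and the highest share of any chromosome. Chromosome 7 held 96, 4.42% (3.59% to 5.37%) of 2172 and the lowest share. On the other chromosomes the share was between 6.30% (chromosome 17) and 9.32% (chromosome 1), around the 8.0% of the whole list. The list-only share of chromosome X was 10.7% in D2 CC (8.0% over the whole list), against 12.1% in D1 CC (16.6%), 3.25% in D2 SC (3.25%) and 2.90% in D2 SS (4.21%), so it was above the share of its own list in D2 CC and below it in D1 CC. Chromosome 7 gave 4.42% in D2 CC, against 26.7% in D1 CC, 2.19% in D2 SC and 1.81% in D2 SS, so it was lowest in the 3 D2 sets and highest in D1 CC. Chromosome 7 also held a smaller part of all peaks in D2 CC (3.17%) than in D1 CC (4.55%), and the sex of the animals is not given in the sources used here.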
